A study of Mus musculus with 6 samples.

Results

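Most Clec-named genes code for proteins of the C-type lectin family. All rows of the count table whose symbol begins with Clec and a digit were taken, which gave 32 of 24061 gene symbols. They were compared between 2 subsets of mammary gland macrophages, sorted as CD45+CD11b+F4/80+ cells of FVB/N mice with or without surface Lyve-1, a hyaluronan-binding receptor of lymphatic endothelium and of some tissue macrophages. There were 3 Lyve-1+ and 3 Lyve-1- libraries, each prepared from the pooled inguinal glands of 4 female mice, from which the lymph nodes had been removed, so a library averages its animals. Replicate 1 of each subset came from mice of 6 weeks and replicates 2 and 3 from mice of 10 weeks.

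C-type lectin receptors of myeloid cells bind sugars, lipids and proteins of microbes or of damaged and dying cells. Some, such as Dectin-1, Dectin-2 and Mincle, activate the kinase Syk and the adaptor Card9, either through a tyrosine motif of their own or through the Fc receptor gamma chain (Fcer1g), while DCIR and MICL carry inhibitory motifs that recruit phosphatases. Others take up glycoproteins, serve as ligands of natural killer cell receptors, or are secreted and act outside the cell. In tissue macrophages and dendritic cells the set of receptors differs between cell types, which makes the family a common source of subset markers.

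Of the 32 genes, 20 had enough counts to be tested, 5 had low counts and 7 had 0 counts in at least 4 of the 6 libraries. All Clec genes together took 0.154% to 0.265% of the counts of a library. Most of the family lies on chromosome 6 of GRCm38 (mm10), which held 24 of the 32 genes and 16 of the 20 tested. The genes for the DCIR receptors, DCAR, Dectin-2, MCL and Mincle form a run of 9 genes at chr6:122921848-123289870. A second run of 12 genes at chr6:128662385-129472779 holds the Clec2 genes other than Clec2l, and Clec12a, Clec12b, Clec1a, Clec1b, Clec9a and Clec7a.

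Close relatives in this family share sequence, and paired 50-bp reads that lie wholly within a shared stretch can belong to either gene. Of the 50-base words in the annotated transcripts of Clec10a, 9.02% were also found in another gene, and 270 of these words were shared with Mgl2, its neighbour on chromosome 11. The longest coding stretch that the 2 genes have in common is shown because Clec10a carried the smallest p of the family. It was 183 bases long and spanned exons 7 to 9 of a transcript of each gene, at chr11:70169822-70170189 in Clec10a and chr11:70136337-70136699 in Mgl2, on the plus strand of GRCm38.
Clec10a and Mgl2: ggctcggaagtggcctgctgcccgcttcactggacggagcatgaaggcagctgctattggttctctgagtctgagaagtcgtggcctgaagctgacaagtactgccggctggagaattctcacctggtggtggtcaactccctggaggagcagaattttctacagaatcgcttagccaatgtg

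In the DCIR run, Clec4a2 shared 6.83% and Clec4b1 8.68% of their words with other genes. The longest coding stretch common to both was 82 bases long, in exon 6 of a transcript of Clec4a2 (chr6:123140682-123140763) and exon 4 of a transcript of Clec4b1 (chr6:123069682-123069763), both on the plus strand.
Clec4a2 and Clec4b1: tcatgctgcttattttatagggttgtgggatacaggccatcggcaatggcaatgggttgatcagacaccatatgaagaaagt
Clec4a4 shared 15.7% of its words, all with Clec4a2. Among further tested genes, Clec2i shared 4.13%, Clec9a 4.02% and Clec2g 3.9%, while Clec3b, Clec4a1, Clec4a3, Clec4d, Clec4e, Clec5a, Clec7a, Clec12b and Clec14a shared 0%.

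Promoter windows of 250 bases before to 50 bases after the start were taken from RefSeq (GRCm38.p6) and were found for 25 of the 32 genes, of which 16 were tested. The core letters of PU.1, the lineage factor of macrophages, GAGGAA on either strand, were present in at least 1 window of 10 of these 16 genes. Over all 32851 windows of this length 28.3% held the letters. The letters TGANTCA of AP-1 occurred in 3 of the 16 genes, against 7.81% of all windows, and TTGCNNAA of C/EBP in 4 of the 16, against 10.8%. Genes with more than 1 window had more than 1 chance to match, and a match is a description of letters. The windows of 3 genes of the DCIR run, which lay on both sides of 0 in the subset comparison, and of Clec7a are shown with the PU.1 letters of either strand in capitals, each in the direction of transcription.
Clec4a1, plus strand, chr6:122921598-122921897: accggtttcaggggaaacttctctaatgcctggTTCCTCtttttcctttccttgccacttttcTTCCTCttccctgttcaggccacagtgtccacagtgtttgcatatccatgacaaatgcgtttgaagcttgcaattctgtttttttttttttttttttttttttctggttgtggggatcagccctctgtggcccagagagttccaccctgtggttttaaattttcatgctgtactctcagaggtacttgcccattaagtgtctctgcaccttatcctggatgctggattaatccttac
Clec4a2, plus strand, chr6:123122440-123122739: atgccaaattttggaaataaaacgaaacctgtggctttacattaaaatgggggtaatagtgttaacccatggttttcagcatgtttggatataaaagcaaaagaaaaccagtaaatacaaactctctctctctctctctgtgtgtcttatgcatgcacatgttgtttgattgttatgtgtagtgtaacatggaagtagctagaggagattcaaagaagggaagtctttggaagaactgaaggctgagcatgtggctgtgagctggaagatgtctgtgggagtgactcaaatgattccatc
Clec4b1, plus strand, chr6:123049712-123050011: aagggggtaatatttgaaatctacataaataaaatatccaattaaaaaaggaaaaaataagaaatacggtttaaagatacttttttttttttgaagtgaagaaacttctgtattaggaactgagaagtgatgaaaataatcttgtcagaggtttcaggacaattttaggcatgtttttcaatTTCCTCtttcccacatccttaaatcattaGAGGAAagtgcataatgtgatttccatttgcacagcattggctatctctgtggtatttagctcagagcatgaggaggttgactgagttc
Clec7a, minus strand, chr6:129472730-129473029: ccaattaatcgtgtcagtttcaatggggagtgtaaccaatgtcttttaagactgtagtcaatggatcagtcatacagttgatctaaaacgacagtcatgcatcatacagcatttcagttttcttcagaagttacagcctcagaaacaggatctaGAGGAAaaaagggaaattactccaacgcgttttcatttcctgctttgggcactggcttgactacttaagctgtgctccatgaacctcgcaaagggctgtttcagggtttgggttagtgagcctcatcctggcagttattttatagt
Clec4a1 and Clec4b1 each held 2 PU.1 matches, Clec7a held 1, and Clec4a2 held 0 with 1 AP-1 match.

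The libraries held 6478007 to 21406839 counts. The sort was checked with Lyve1, which had 1.43, 6.66 and 7.43 CPM in the Lyve-1- libraries and 2352, 788 and 597 CPM in the Lyve-1+ libraries. CPM are a gene's counts scaled to a common library size, here the TMM-adjusted total over all tested genes. The macrophage genes Ptprc, Itgam, Emr1 (F4/80) and Csf1r were present in every library, at 201 CPM or more. Genes of the olfactory receptor family, which these cells are not known to use, were counted most widely in Lyve-1- replicate 3, where 652 of 1122 genes had a count. For Lyve-1+ replicate 1 the number was 370 genes, for Lyve-1+ replicate 2 it was 134, and the other 3 libraries had 4 to 34 genes with a count. Their part in the results below was not tested, other than by leaving libraries out.

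Levels between genes were compared per kilobase of exon (RPKM). Clec2d had the highest mean over the 6 libraries, at 265 ± 74.5 RPKM in Lyve-1- and 165 ± 60.7 RPKM in Lyve-1+ cells (SD, n = 3 each). Clec10a was next by that mean, at 101 ± 30.3 and 204 ± 41.8 RPKM, and Clec7a the third, at 115 ± 20.3 and 60.7 ± 36.5 RPKM. Within the subsets the order differed, since Clec10a had the highest mean in Lyve-1+ cells and Clec7a was above Clec10a in Lyve-1- cells. The order then ran through Clec4a3, Clec4e, Clec4a1, Clec4b1, Clec12a, Clec3b, Clec4d, Clec4a2 and Clec4n, at means over the 6 libraries of 80.9 down to 20.9 RPKM. Neighbours in this order changed places between libraries, and Clec2d was above Clec10a in 4 of 6. The step from Clec4n to Clec16a, at 5.92 RPKM, was present in 6 of 6 libraries, as was that from Clec2g, at 4.65 RPKM, to Clec9a, at 1.38 RPKM. Clec16a, Clec2i, Clec5a and Clec2g formed a low group, and Clec9a, Clec12b, Clec14a and Clec1a were near the lower limit.

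**Figure D1:**
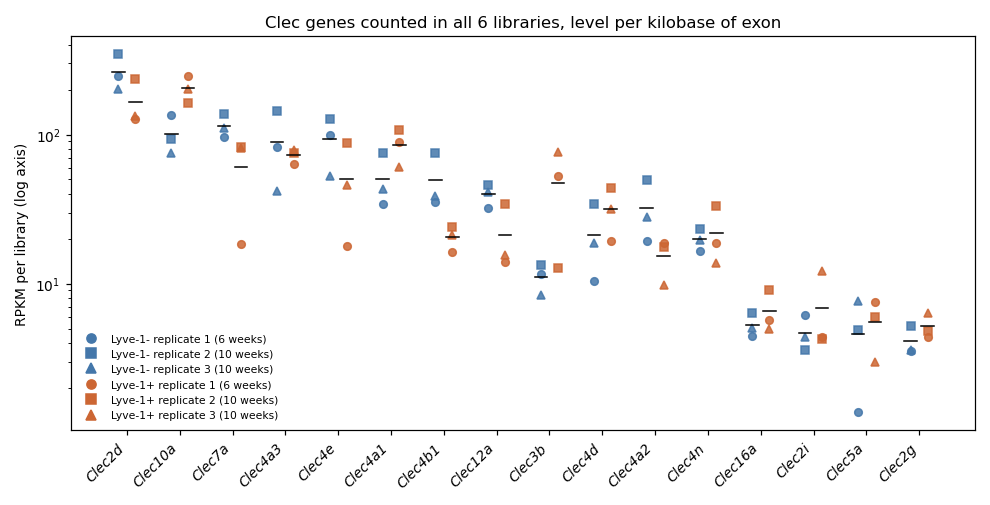
Level of the 16 Clec genes that had counts in all 6 libraries, as RPKM per library on a log axis, ordered by the mean over libraries; each point is a library, coloured by subset, and black lines are subset means. Clec10a lies higher in all 3 Lyve-1+ libraries, while Clec7a and Clec4b1 lie lower in all 3.

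The first comparison asked which Clec genes differ between the Lyve-1+ and the Lyve-1- subset. A gene was called when its adjusted p was under 0.01 and its log2 fold change in either direction lay between 1 and 10. By edgeR's quasi-likelihood test 0 of 20 Clec genes were called, against 0.112% of all 13348 genes tested, and by DESeq2 0 of 20, against 1.19%. At an adjusted p under 0.05 the count was also 0 of 20, against 0.629% of all genes, by edgeR. Lyve1, the sort marker, was not called by edgeR, at a log2 fold change of 7.93 and an adjusted p of 0.0254. DESeq2 called it, at 7.87 and an adjusted p of 1.22e-18. A count of 0 by edgeR thus does not show that the Clec genes are alike in the subsets. An unadjusted p under 0.05 by edgeR was reached by 6 of 20 Clec genes, against 7.69% of all genes. Of these, Clec10a and Clec3b were higher in Lyve-1+ cells (4.2% of all genes) and Clec4a2, Clec4b1, Clec12a and Clec2d were lower (3.5% of all genes). DESeq2 gave 1 of 20 at an adjusted p under 0.05, against 1.92% of all genes, and that gene was Clec10a. It gave no adjusted p for Clec1a, Clec2g, Clec2i, Clec5a, Clec9a, Clec12b and Clec14a. In its counts and shares, genes without an adjusted p were taken as not reaching the limit. The subsets did not overlap for 4 of 20 genes, against 14.3% of all genes. Clec10a was the higher one (7.82% of all genes) and Clec4a2, Clec4b1 and Clec7a were the lower ones (6.5% of all genes). With fewer libraries, absence of overlap is more frequent for all genes. Without Lyve-1- replicate 2 it held for 11 of 23 tested Clec genes, against 22.5% of all genes. Dropping Lyve-1+ replicate 2 gave 8 of 23, against 20.6%, while 8 of 22 were found without Lyve-1- replicate 3, against 26%. In the remaining runs the Clec genes were nearer to all genes or below them. Leaving out Lyve-1- replicate 1 gave 6 of 23, against 22.6%. For Lyve-1+ replicate 1 it was 5 of 24, against 20.4%, and for Lyve-1+ replicate 3 5 of 25, against 22.1%. The 10-week libraries alone gave 6 of 22, against 33.7%.

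The fitted log2 fold change, Lyve-1+ against Lyve-1-, was above 0 for 9 of the 20 genes (49.4% of all genes) and below 0 for 11 (50.6% of all genes), with a median of -0.49 against -0.01 over all genes. The 4 genes with 0 counts in some library were all below 0, and the 16 with at least 10 counts in every library had a median of 0.20, with 9 above and 7 below 0. In these pools, fewer cells of a type and less RNA per cell cannot be told apart.

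**Figure D2:**
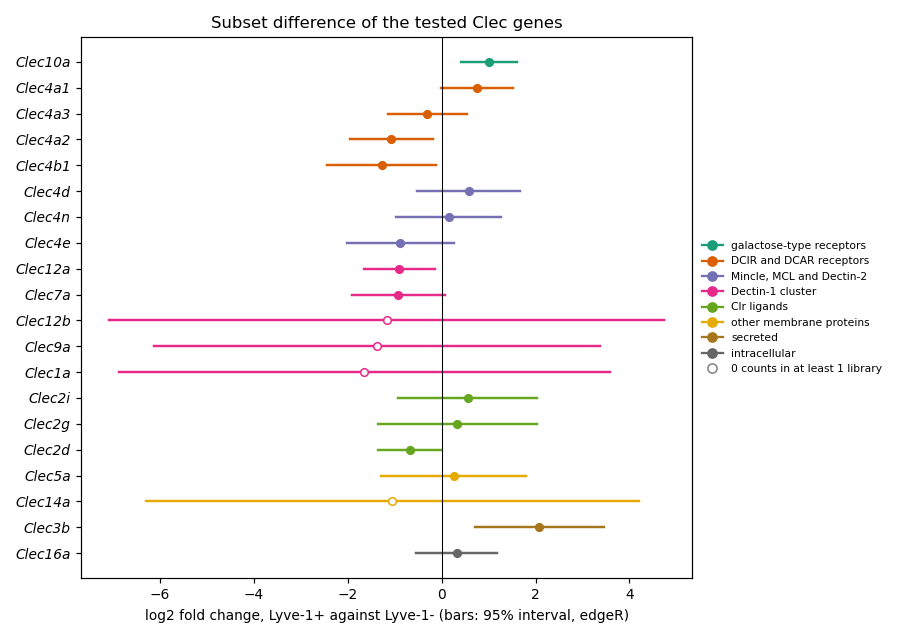
Fitted log2 fold change between Lyve-1+ and Lyve-1- libraries (x axis) for the 20 tested Clec genes (y axis), with 95% intervals from edgeR and colours for the group of receptors; open symbols had 0 counts in at least 1 library. The intervals of Clec10a and Clec3b lie above 0 and those of Clec4a2, Clec4b1, Clec12a and Clec2d below 0, before adjustment over all genes.

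Clec10a (MGL1, CD301a) is an endocytic receptor for terminal galactose and N-acetylgalactosamine on macrophages and dendritic cells. It had 391, 272 and 219 CPM in the Lyve-1- libraries and 716, 474 and 587 CPM in the Lyve-1+ libraries. The 3 Lyve-1+ values were all above the 3 Lyve-1- values. The fitted log2 fold change was 1.01 ± 0.28 (SE), a 2.01-fold difference with a 95% interval of 0.41 to 1.61 on the log2 scale. The unadjusted p was 0.00278 and the adjusted p 0.178 by edgeR, and the adjusted p was 0.0180 by DESeq2. Over 16 settings its log2 fold change stayed between 0.66 and 1.25, and its adjusted p by edgeR or DESeq2 ran from 0.0157 to 0.921. The lowest fold change was obtained without Lyve-1- replicate 3 and Lyve-1+ replicate 1, the libraries with the most olfactory receptor genes.

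Mgl2 (CD301b), its close relative, had 490, 314 and 268 CPM in the Lyve-1- and 606, 426 and 338 CPM in the Lyve-1+ libraries. These overlapped, with a log2 fold change of 0.35 ± 0.30 and an adjusted p of 1.00 by edgeR. The difference between the fold changes of the 2 genes was not tested. Clec4f, the galactose-binding receptor that marks Kupffer cells in the liver, was not tested for low counts, with 0, 0 and 19 counts in Lyve-1- and 4, 47 and 0 counts in Lyve-1+ libraries.

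In the DCIR run on chromosome 6, of the 4 DCIR and DCAR genes tested Clec4a1 was above 0 and the other 3 below. Clec4a2 (DCIR1), an inhibitory receptor with an immunoreceptor tyrosine motif, had 56.9, 145 and 82.2 CPM in Lyve-1- and 55.1, 51.7 and 28.7 CPM in Lyve-1+ libraries. The subsets did not overlap, but the lowest Lyve-1- library and the highest Lyve-1+ library, both of 6 weeks, were close together. The fit gave a log2 fold change of -1.07 ± 0.42, with an unadjusted p of 0.0222 and an adjusted p of 0.474 by edgeR.

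Clec4b1 (DCAR), an activating receptor that signals through the Fc receptor gamma chain, had 27.6, 58.6 and 30.2 CPM in Lyve-1- and 12.7, 18.8 and 16.5 CPM in Lyve-1+ libraries. Again no Lyve-1+ library reached a Lyve-1- library. The log2 fold change was -1.28 ± 0.54, with an unadjusted p of 0.0337 and an adjusted p of 0.558 by edgeR. Reads from the stretch printed above could belong to Clec4a2 or to Clec4b1.

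Clec4a1 (DCIR4) had 52.9, 116 and 67.2 CPM in Lyve-1- and 138, 167 and 94.9 CPM in Lyve-1+ libraries. It was the only one of the 4 on the higher side, with a log2 fold change of 0.76 ± 0.36 whose 95% interval, -0.01 to 1.53, reached 0. The unadjusted p was 0.0529 by edgeR and the subsets overlapped. Clec4a3 (DCIR3) had 119 ± 67.9 and 96.1 ± 10.3 CPM, with an interval of -1.14 to 0.53. Its sign depended on 1 library, since leaving out Lyve-1- replicate 2 turned it from -0.30 to 0.22. Clec4a4 (DCIR2) had at most 17 counts in a library and Clec4b2 (DCAR1) at most 61, and neither was tested.

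**Figure D3:**
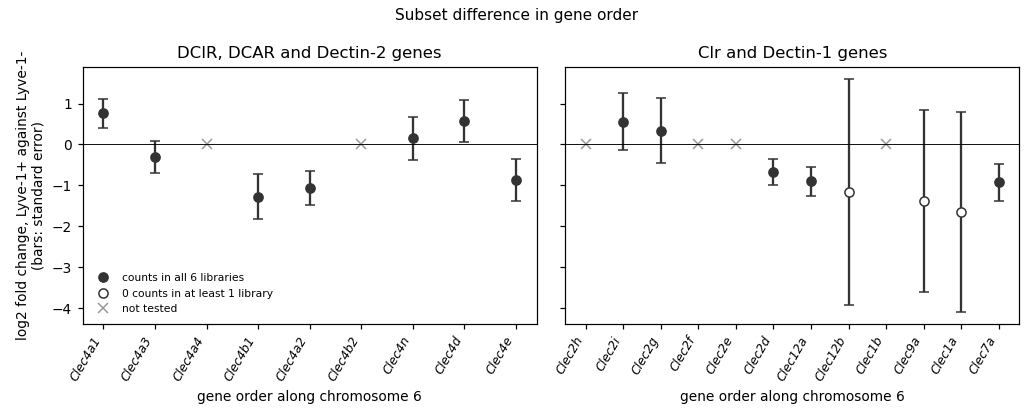
Fitted log2 fold change with its standard error (y axis) for the Clec genes of the 2 runs on chromosome 6, in gene order (x axis); crosses are genes that were not tested, drawn at 0, and open symbols had 0 counts in at least 1 library. In the left panel genes lie on both sides of 0, and in the right panel all 6 tested genes from Clec2d onward lie below 0.

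Mincle, MCL and Dectin-2 lie at the other end of this run and signal with the Fc receptor gamma chain. Clec4e (Mincle), which binds mycobacterial glycolipids and a protein of dying cells, had 496, 627 and 264 CPM in Lyve-1- and 88.8, 438 and 228 CPM in Lyve-1+ libraries. The subsets overlapped, and Lyve-1+ replicate 1 was the lowest library by far. Its log2 fold change of -0.88 ± 0.51 had an adjusted p of 0.870 by edgeR, and leaving out single libraries moved it both ways. It was -0.45 without Lyve-1+ replicate 1, whereas it was -1.56 with an adjusted p of 0.154 by edgeR when Lyve-1+ replicate 2 was dropped. Clec4d (MCL), its partner receptor, had 33.8 ± 19.5 CPM in Lyve-1- and 50.5 ± 19.3 CPM in Lyve-1+ libraries. Clec4n (Dectin-2), a receptor for mannans, had 28.1 ± 4.64 and 31.1 ± 14.4 CPM. Neither Clec4d nor Clec4n differed beyond the spread between libraries, with intervals of -0.52 to 1.67 and -0.97 to 1.27 on the log2 scale.

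In the Dectin-1 cluster all 5 tested genes were below 0, with a median log2 fold change of -1.17, but 3 of them had few counts. Clec7a (Dectin-1) is the receptor for fungal beta-glucans and is annotated as a polymorphic pseudogene in GENCODE M21. It had 254, 360 and 294 CPM in Lyve-1- and 48.9, 218 and 214 CPM in Lyve-1+ libraries. The subsets did not overlap, and Lyve-1+ replicate 1, of 6 weeks, was the lowest. Its log2 fold change of -0.92 ± 0.45 had an unadjusted p of 0.0653 and an adjusted p of 0.704 by edgeR, and leaving out Lyve-1+ replicate 1 brought it to -0.47.

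Clec12a (MICL), an inhibitory receptor for uric acid crystals of dead cells, had 177, 252 and 229 CPM in Lyve-1- and 77.0, 190 and 86.4 CPM in Lyve-1+ libraries. Of the Lyve-1+ libraries replicate 2 was above the lowest Lyve-1- library and the other 2 were below it. The log2 fold change was -0.90 ± 0.35, with an unadjusted p of 0.0225 and an adjusted p of 0.478 by edgeR. Without Lyve-1+ replicate 2 the adjusted p was 0.0537, the lowest over 16 settings.

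Clec9a (DNGR-1), which detects actin of dead cells and marks type 1 conventional dendritic cells, had 134, 0 and 58 counts in Lyve-1- and 16, 132 and 0 counts in Lyve-1+ libraries. Its interval, -6.12 to 3.37 on the log2 scale, held both directions. Clec1a, a receptor for fungal melanin, had 39, 6 and 26 against 15, 26 and 0 counts. Clec12b, an inhibitory receptor, had 0, 0 and 51 against 15, 44 and 0 counts. The presence of Clec12b in Lyve-1- cells thus rested on replicate 3, and its log2 fold change moved from -1.17 to 6.84 without that library. Clec1b (CLEC-2), the podoplanin receptor of platelets, had 36 counts in Lyve-1+ replicate 1 and 0 in the other 5 libraries.

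Most Clec2 genes code for Clr proteins, ligands of NKR-P1 receptors on natural killer cells. Clec2d (Clr-b), whose binding to NKR-P1 holds back killing, had 299, 420 and 243 CPM in Lyve-1- and 155, 286 and 162 CPM in Lyve-1+ libraries. One Lyve-1+ library, replicate 2, lay above the lowest Lyve-1- library. The log2 fold change was -0.68 ± 0.31, with an unadjusted p of 0.0478 and an adjusted p of 0.641 by edgeR. Clec2i (Clr-g) had 14.6 ± 4.06 and 21.5 ± 14.1 CPM, with 37.8 CPM in Lyve-1+ replicate 3 and 13.1 to 13.6 CPM in the other Lyve-1+ libraries. Without that library its log2 fold change moved from 0.55 to -0.16. Clec2g had 11.7 ± 2.74 and 14.8 ± 2.96 CPM. Of Clec2e, Clec2f and Clec2h, which were not tested, no library had more than 26 counts, and Clec2f is annotated as a pseudogene in GENCODE M21.

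Clec5a (MDL-1), a myeloid receptor that signals through Tyrobp (DAP12), had 5.29, 18.8 and 29.2 CPM in Lyve-1- and 29.0, 23.0 and 11.5 CPM in Lyve-1+ libraries, which overlapped. Its direction was not stable, with a log2 fold change of 0.25 over all libraries and -0.47 at 10 weeks. Clec16a, an intracellular protein of endosomes and mitophagy, had 44.1 ± 8.04 and 55.0 ± 18.0 CPM, with an interval of -0.55 to 1.19. Clec14a, a surface protein of endothelial cells, had 0, 0 and 93 counts in Lyve-1- and 45, 33 and 12 counts in Lyve-1+ libraries. Its log2 fold change was -1.05 with all libraries and 7.83 without Lyve-1- replicate 3.

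Clec3b (tetranectin), a secreted protein that binds the kringle domains of plasminogen and is made by mesenchymal cells, had 11.4, 13.3 and 8.31 CPM in Lyve-1- and 52.0, 12.6 and 76.0 CPM in Lyve-1+ libraries. Replicates 1 and 3 of the Lyve-1+ subset were above all Lyve-1- libraries and replicate 2 was within their range. The log2 fold change was 2.08 ± 0.65, with an unadjusted p of 0.00581 and an adjusted p of 0.262 by edgeR. Without Lyve-1+ replicate 2 the adjusted p was 0.0331. Fibroblast genes moved the same way, with 9 of 10 listed genes at a log2 fold change above 0 and a median of 1.46. They ran from -0.08 for Pi16 to 2.19 for Col1a2. Their summed level was 620, 775 and 587 CPM in Lyve-1- and 1355, 1149 and 3976 CPM in Lyve-1+ libraries, and 0 of the 10 were at 0 in all libraries. The Lyve-1+ library with the lowest Clec3b also had the lowest fibroblast sum, and the one with the highest had the highest. The part of fibroblast RNA in the Clec3b result was not tested.

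Of the other secreted proteins, Clec11a, a growth factor of bone and blood cells, had 54, 1 and 18 counts in Lyve-1- and 3, 0 and 0 counts in Lyve-1+ libraries and was not tested. Clec3a and Clec18a had 0 counts in 4 and 5 libraries. Clec4g (LSECtin), of liver sinusoidal endothelium, had 0, 27 and 16 against 2, 0 and 0 counts, and Clec2l 0, 0 and 6 against 10, 14 and 0 counts.

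The 12 untested genes had their counts in different libraries from one gene to the next. Lyve-1+ replicate 1 had counts in 9 of them, as against 8 for Lyve-1- replicate 3, the libraries with counts in 370 and 652 olfactory receptor genes. In the others 3 (Lyve-1- replicate 1), 4 (Lyve-1- replicate 2), 4 (Lyve-1+ replicate 2) and 0 (Lyve-1+ replicate 3) had a count. Per kilobase of exon, the 12 genes together had 0 to 4.94 counts and the olfactory receptor genes 0.0343 to 2.64 counts in a library. The order was not the same in both, since Lyve-1- replicate 1 had 4.52 counts per kilobase over the untested Clec genes and the lowest value over the olfactory receptor genes. Where a library had 0 counts, up to 3 counts remain possible from counting error alone, or 0.14 to 0.463 CPM depending on its depth.

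**Figure D4:**
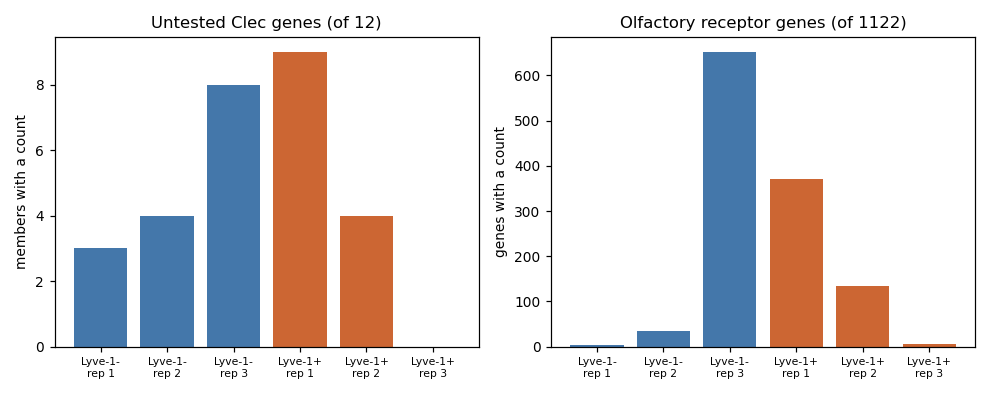
Number of the 12 untested Clec genes with at least 1 count (left panel, y axis) and of the 1122 olfactory receptor genes with at least 1 count (right panel, y axis) in each library (x axis), with bars coloured by subset. Lyve-1- replicate 3 and Lyve-1+ replicate 1 have the highest bars in both panels, and Lyve-1+ replicate 3 has 0 in the left panel.

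Other cell types were followed through lists of marker genes. Of the list for type 2 and mature dendritic cells 8 of 9 genes were below 0, from 0.10 for Dpp4 to -3.77 for Ccl22, with sums of 1692 to 2852 CPM in Lyve-1- and 1056 to 1291 CPM in Lyve-1+ libraries. Of the list for type 1 dendritic cells, which includes Clec9a, 9 of 10 were below 0, from 1.81 for Tlr3 to -2.13 for Cadm1, with sums of 432 to 630 CPM and 323 to 454 CPM. These lists moved in the direction of Clec4a2, Clec4b1, Clec12a and Clec7a. So did the medians of the platelet, NK cell, T cell and mammary epithelium lists given below. The part of any of these cell types in those results was not tested. Of the macrophage list 7 of 10 were above 0, from -0.62 for Ptprc to 1.66 for C1qa, and C1qa, a complement subunit of tissue macrophages, had an adjusted p of 0.0376 by edgeR. All 4 tested genes of the Kupffer cell list were above 0, from 1.58 for Marco to 4.38 for Vsig4, with an adjusted p of 0.0120 for Timd4 by edgeR, while Clec4f of that list was not tested. Vsig4 had 0, 4 and 6 counts in Lyve-1- and 257, 121 and 2 counts in Lyve-1+ libraries, and Marco 0, 43 and 41 against 20, 566 and 5. Their intervals, -0.58 to 9.33 and -2.42 to 5.58, held both directions, while Timd4 and Cd5l did not overlap between the subsets. None of the genes of the dendritic cell, macrophage and Kupffer cell lists was at 0 in all libraries.

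The median log2 fold changes of 8 further lists were -0.05 for monocytes (Treml4 0.82 to Ccr2 -1.03), 0.70 for neutrophils (Cxcr2 4.73 to Ltf -1.13), 0.37 for endothelium (Emcn 1.59 to Tek -1.57) and 0.17 for lymphatic endothelium (Mmrn1 0.94 to Reln -1.63). They were -1.16 for platelets (Gp1ba -0.52 to Itga2b -2.11), -1.07 for NK cells (Eomes -0.50 to Gzma -1.72), -0.47 for T cells (Cd4 0.13 to Cd3g -1.65) and -1.30 for mammary epithelium (Prlr -0.12 to Csn2 -1.67). Only 4 of 7 platelet and 3 of 6 NK cell genes were tested. Gzma had 0, 0 and 64 counts in Lyve-1- and 17, 31 and 0 counts in Lyve-1+ libraries, and Eomes 0, 0 and 55 against 19, 87 and 0. The presence of both in Lyve-1- cells thus rested on replicate 3. No gene of these 8 lists, nor of the fibroblast and dendritic cell lists, had an adjusted p under 0.05 by edgeR. By DESeq2 there were 4 such genes of the fibroblast list, the lowest being Col1a2 at 1.57e-05, 2 of the list for type 2 and mature dendritic cells, 1 of the neutrophil list and 0 of the others.

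The partners through which the receptors signal were measured in the same fit. All 24 listed genes were tested, 6 above and 18 below 0, with a median of -0.20. At an adjusted p under 0.05 there were 0 by edgeR, against 0.629% of all genes, and 1 by DESeq2, against 1.92%. The adaptors Fcer1g and Tyrobp had log2 fold changes of 0.12 ± 0.30 and -0.22 ± 0.27. Syk was at 993 CPM in Lyve-1- and 818 CPM in Lyve-1+ libraries, with a log2 fold change of -0.28 ± 0.23, and Card9 at -0.47 ± 0.42. The range went from 0.50 for Nfatc2 to -1.04 for Malt1, the paracaspase that acts with Card9 and Bcl10. At an unadjusted p under 0.05 by edgeR there were 4 of the 24 genes, all below 0, against 3.5% of all genes in that direction. These were Malt1 and, named after their values were seen, the lipase Plcg2 and the NF-kappa-B subunits Nfkb1 and Rel. The partner with an adjusted p under 0.05 by DESeq2 was Rel, also named after the fact, at 0.0101. Malt1 had 479, 584 and 519 CPM in Lyve-1- and 96.2, 316 and 359 CPM in Lyve-1+ libraries, without overlap, and Lyve-1+ replicate 1 was again the lowest, as for Clec7a and Clec4e.

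Of the C-type lectins without a Clec name 19 of 23 were tested, 8 above and 11 below 0, with a median of -0.21. By edgeR 1 of the 19 was called, against 0.112% of all genes, and by DESeq2 3 were called, against 1.19%. Colec12, called by both, a scavenger receptor of the collectin group, had 57.6, 41.8 and 42.3 CPM in Lyve-1- and 586, 359 and 323 CPM in Lyve-1+ libraries. Its log2 fold change was 3.16 ± 0.32, with an adjusted p of 0.000523 by edgeR. The mannose receptor Mrc1 had a log2 fold change of 1.21 ± 0.26 and an adjusted p of 0.0560 by edgeR, and DESeq2 called it, with 1.17 and an adjusted p of 0.000324. The largest fall was that of Ly75 (DEC-205), a dendritic cell endocytic receptor, at -2.84 ± 0.77 with an adjusted p of 0.181 by edgeR, and it was also called by DESeq2, with -2.85 and an adjusted p of 0.00905.

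The second comparison asked whether Clec genes differ between 10 and 6 weeks, with the subset as a covariate. It rests on 1 library per subset at 6 weeks and 2 at 10 weeks. The count with an adjusted p under 0.01 was 0 of 20 by edgeR (0% of all genes) and 0 of 20 by DESeq2 (0.112% of all genes). An unadjusted p under 0.05 by edgeR was reached by 3 of 20, against 3.33% of all genes. Clec7a had the smallest, with a log2 fold change of 1.16, 10 weeks against 6 weeks, an unadjusted p of 0.00812 and an adjusted p of 1.00 by edgeR. Clec4d was at 1.15 (p of 0.0402 by edgeR) and Clec10a at -0.55 (p of 0.0481 by edgeR).

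The difference between the subsets was tested for a difference between the ages by an interaction term. The adjusted p was under 0.05 for 0 of 20 genes by edgeR (0.00749% of all genes) and for 0 of 20 by DESeq2 (0.307% of all genes). An unadjusted p under 0.05 by edgeR was reached by 2 of 20, against 4.59% of all genes. These were Clec7a, with an interaction of 1.78 on the log2 scale and a p of 0.00820 by edgeR, and Clec4e, with 2.06 and a p of 0.0219 by edgeR. For both the gap between the subsets was wide at 6 weeks and narrower at 10 weeks, and for both it was Lyve-1+ replicate 1 that stood low. Age and library cannot be told apart at 6 weeks, where each subset had 1 pool.

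**Figure D5:**
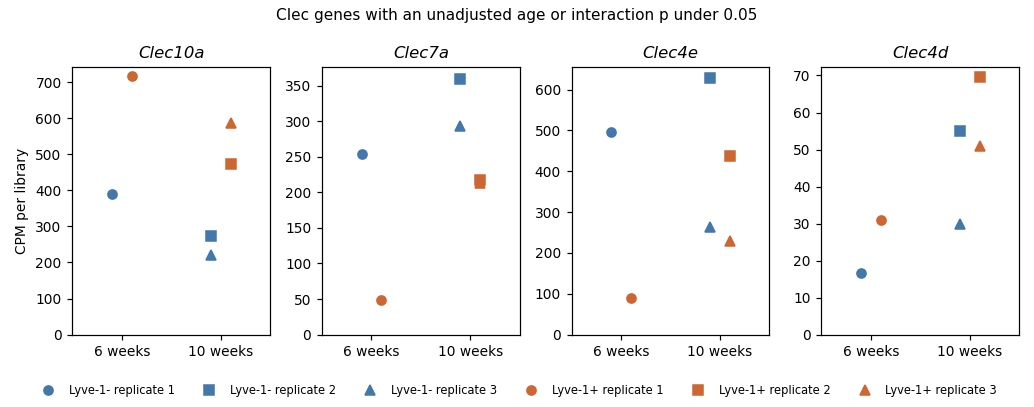
CPM per library (y axis) of Clec10a, Clec7a, Clec4e and Clec4d at 6 and 10 weeks (x axis), with each library a point coloured by subset; there is 1 library per subset at 6 weeks and 2 at 10 weeks. The 6-week Lyve-1+ library had 48.9 CPM of Clec7a and 88.8 CPM of Clec4e, the lowest of the 6 libraries for both.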

How the data were processed

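RNA was taken from CD45+CD11b+F4/80+ cells sorted by Lyve-1, and libraries were made with a stranded total-RNA kit. The deposited values are raw counts per gene symbol: the authors mapped read pairs of 50 bp with HISAT2 2.0.2 (mm10) and counted them with featureCounts 1.5.0, per the labels and their methods, in which a 6-week library was removed as an outlier. Counts were analysed in R 4.3.3 with edgeR 4.0.16 (filterByExpr by subset, TMM, robust quasi-likelihood F test), limma 3.58.1 and, as the alternative, DESeq2 1.42.0. P-values were adjusted by Benjamini-Hochberg, by edgeR over all genes tested. DESeq2 left some genes, by its default filters, without an adjusted p. In every DESeq2 count and share these genes were taken as not reaching the limit. The code was tested on simulated data. Separate pools were the replicates. Libraries of a subset all differed by more than counting noise (chi-square per degree of freedom of 63.8 to 112). Positions and exon lengths came from GENCODE M21, which 22749 symbols matched directly and 955 through a RefSeq synonym; 357 did not match.

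Members, gene lists and tests were chosen with earlier results of these data known. Named in full were tested genes whose subsets did not overlap or whose unadjusted p was under 0.05, the 3 with the highest RPKM, and, from other lists, genes with an adjusted p under 0.05 and the largest rise and fall. Replicate numbers mark age in part, and no pairing was used in the main fit. Same-numbered libraries did not deviate together (correlations of -0.147 to -0.00183), but this cannot tell whether they were sorted from the same mice. The labels do not say so either way, and a fit with the replicate number as a block is given below. Protein sequences were not analysed here, and 1 marker list is not reported here.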

Additional observations from a re-analysis of the deposited data

How the results depend on the processing

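No Clec gene was called for the subset under any alternative run, nor for age or interaction under another test, scaling or filter or with single libraries left out; the interaction could not be fitted without a 6-week library. The median log2 fold change of the tested Clec genes, -0.49, was 0.18 among genes with at least 10 counts in every library, 0.20 for those genes in the fit over all tested genes (an alternative chosen after the data were seen) and -0.85 to -0.12 when single libraries were left out; the loss of genes with libraries at 0 is part of the first and second. Genes without overlap between the subsets numbered 5 to 11 with 1 library left out (20.4% to 26% of all genes), and 8 without the 2 libraries with the most olfactory receptor genes counted (35.3% of all genes), also chosen after the data were seen. Signalling partners with an adjusted p under 0.05 numbered 1 by DESeq2 and 1 without a filter on low counts, against 0. Other C-type lectins at that limit numbered 3 by DESeq2, without a filter and with age as a covariate, 2 with at least 10 counts in every library, and 1 to 3 with 1 library left out, against 1; the cause was not tested.

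With the replicate number as a block, the median was 0.18, signalling partners numbered 2 and other C-type lectins 3, Clec10a had an adjusted p of 0.0157 by edgeR, and Clec12b and Clec14a turned to 4.57 and 4.99. All genes called then numbered 140, against 15; the range over the other settings was 0 to 188. Same-numbered libraries share an age, and the labels do not say whether they were sorted from the same mice.

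Directions also turned for Clec5a at 10 weeks (-0.47) and with 1 library left out (-0.19 to 0.81), for Clec14a without the 2 libraries (7.33), and with 1 library left out for Clec4a3 (-0.64 to 0.22), Clec4n (-0.30 to 0.37), Clec2i (-0.16 to 0.80), Clec12b (-2.08 to 6.84) and Clec14a (-1.63 to 7.83). Scaling by total library size or by DESeq2 size factors gave a median over all genes of -0.08 and -0.04, against -0.01, and turned no Clec gene. Clec9a, Clec12b, Clec1a and Clec14a, each with few counts and 0 in at least 1 library, had 95% intervals of up to 11.8 on the log2 scale.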
